A study of Nitraria sibirica with 9 samples.

Results

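A set of 150 leaf transcript clusters of the shrub Nitraria sibirica was examined whose abundance was highest at moderate salt, lowest without added salt and in between at high salt. Leaf RNA came from greenhouse seedlings that were kept for 3 days at 0, 100 or 400 mM NaCl, and each level has 3 libraries. Per the labels, salt was added stepwise so that every target level was reached at the same time. Plants at 400 mM had thus begun salt earlier than plants at 100 mM, and salt level cannot be told apart from time in salt. Nothing in the labels says whether the 3 libraries of a level came from separate plants, so the spread between them may be technical.

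The set was chosen from measured values. From the authors' table of 31628 clusters, mean FPKM (fragment counts corrected for cluster length and sequencing depth) was taken at each level. A cluster qualified if its highest 0 mM library lay below its lowest 400 mM library and its highest 400 mM library below its lowest 100 mM library. Its mean over all 9 libraries had to stay under 500 FPKM. The log2 ratio of the means had to reach 0.5 for 100 over 400 mM and 0.3 for 400 over 0 mM. These conditions left 163 clusters, and the 150 with the highest log2 ratio of 100 over 0 mM form the set, numbered by rank in that ratio. The table holds only clusters above 0.3 FPKM in all 9 libraries, so a cluster without signal at 0 mM could not enter. Every comparison among the 3 levels was used in the choice, and the values below describe the set without testing it.

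Salt acts on plants first by withdrawing water and then through sodium and chloride that build up in the leaf. Known responses are the export of sodium or its storage in the vacuole by sodium/proton antiporters, the build-up of solutes such as proline, antioxidant enzymes and signalling through abscisic acid. Halophytes, the plants of saline soils to which Nitraria species belong, often grow well at moderate salinity and are held back at high salinity. The files used here pair no cluster with a gene name or protein description, so none of the 150 can be assigned to one of these responses. No sequences of the clusters were used here.

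Together the 150 clusters took a larger share of the leaf transcripts at 100 mM than at either other level. They held 0.258%, 0.53% and 0.516% of the counts in the 0 mM libraries 1, 2 and 3. In the 100 mM libraries they held 2.06%, 2.13% and 2.10%, and in the 400 mM libraries 0.978%, 1.22% and 1.41%. With n = 3 libraries per level, the mean ± SD was 0.435% ± 0.153 without added salt, 2.10% ± 0.0351 at 100 mM and 1.20% ± 0.217 at 400 mM. The 100 mM libraries lay within a narrow band, whereas 0 mM replicate 1 held less than the other 0 mM libraries. In RNA from whole leaves, a change in the proportion of cell types and a change in RNA per cell cannot be told apart.

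**Figure D1:**
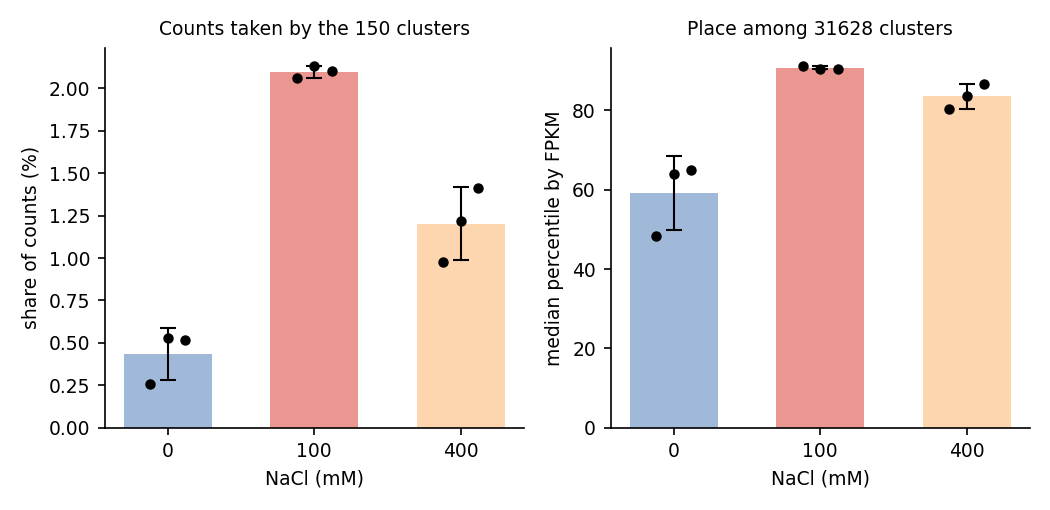
Left, percent of all counts of a library that fell on the 150 clusters, by NaCl level in mM; right, the median percentile of the 150 clusters when all clusters of the table are ranked by FPKM in that library. Points are libraries, bars are means and error bars are SD (n = 3 libraries per level); the 100 mM libraries sit between 2.06% and 2.13% of counts, above all others.

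By rank among all clusters of the table, the typical member stood higher in both salt groups than at 0 mM. Its median percentile by FPKM (mean ± SD over n = 3 libraries) was 59.1 ± 9.37 without added salt, 90.7 ± 0.404 at 100 mM and 83.5 ± 3.10 at 400 mM. The median member stood at 5.96, 11.1 and 11.1 FPKM in the 0 mM libraries, at 57.7, 52.7 and 51.1 FPKM in the 100 mM libraries and at 24.0, 29.9 and 35.6 FPKM in the 400 mM libraries. Values over 100 FPKM were reached by 2, 13 and 11 members in the 0 mM libraries, by 55, 53 and 52 members at 100 mM and by 22, 34 and 39 members at 400 mM. The choice fixes the direction of all these differences, sets a minimum to each and favours a large difference between 100 and 0 mM.

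**Figure D2:**
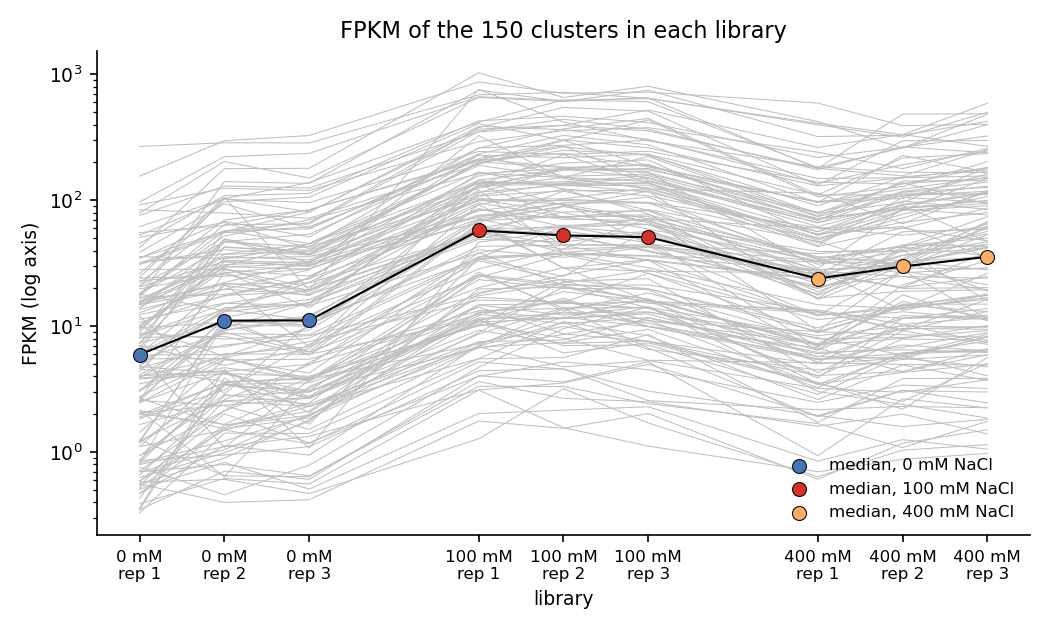
FPKM on a log axis in each of the 9 libraries, with the replicate number under each NaCl level. Each grey line is 1 of the 150 clusters and the coloured points are the medians over them; the median stands at 5.96 to 11.1 FPKM at 0 mM, 51.1 to 57.7 at 100 mM and 24.0 to 35.6 at 400 mM.

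At 100 mM the members were a median of 4.80-fold above 0 mM in mean FPKM (log2 ratio 2.26, range 1.24 to 4.64). Among them, 96 were at least 4-fold and 24 at least 8-fold above 0 mM. At 400 mM the median was 2.70-fold above 0 mM (log2 ratio 1.43, range 0.53 to 3.63), and 117 members were at least 2-fold above. Against 100 mM, the 400 mM means had a median log2 ratio of -0.82 (range -1.97 to -0.50), and 47 members were at least 2-fold lower at 400 mM. Over all 31628 clusters of the table the same medians of the log2 ratios were -0.21 for 100 over 0 mM, -0.14 for 400 over 0 mM and 0.06 for 400 over 100 mM. The table's upper quartiles were 0.21 for 100 over 0 mM and 0.28 for 400 over 0 mM, and its lower quartile for 400 over 100 mM was -0.26. The fold counts were taken in the members only, which the choice selected on these ratios. Scaling the counts by TMM factors (trimmed mean of M-values, a correction for library composition) moved the table's median to 0.03 and the members' median to 2.50 for 100 over 0 mM.

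**Figure D3:**
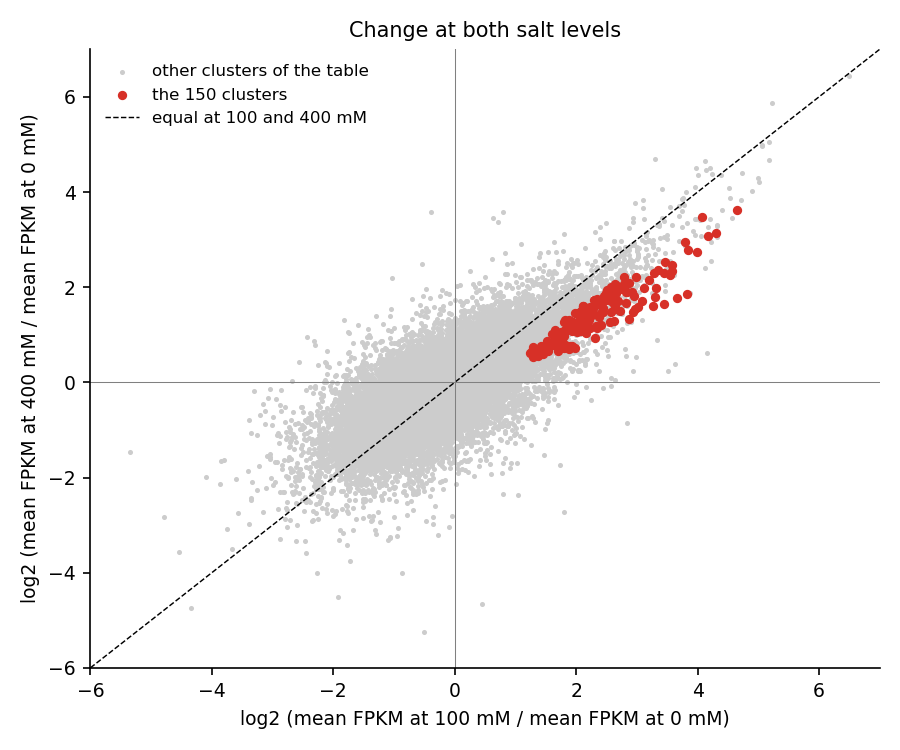
Log2 ratio of mean FPKM at 100 over 0 mM (x axis) and at 400 over 0 mM (y axis) for every cluster of the table, with the 150 clusters in red and a dashed line where both salt levels are equal. The 150 lie right of the line at 1.24 to 4.64 on the x axis, as the choice requires, and both axes share the 0 mM libraries.

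The difference from 0 mM at 400 mM amounted to a median of 41.8% of the difference at 100 mM, with quartiles of 35.9% and 50.7% and a range of 19.9% to 63.7%. In 110 members it was below 50%. The choice bounds this share on both sides, since the 400 mM mean must stand apart from both other means by set minimum ratios. The upper bound is lower in members with a smaller ratio of 100 over 0 mM. The range and the count below 50% are thus partly set by the choice. Taken library by library, the median was 28.2% in 400 mM replicate 1, 41.6% in replicate 2 and 55.6% in replicate 3. The 9 members below 25% had a median of 6.18 FPKM over all libraries, with a highest of 201.3 FPKM, beside a median of 34.7 FPKM for the 101 members between 25% and 50%. The 40 members at 50% or more had a median of 30.1 FPKM. Across members, the log2 ratios of 100 over 0 mM and of 400 over 0 mM share the 0 mM libraries and are not compared further.

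Cluster-23439.79583 had the highest ratio of 100 over 0 mM and is rank 1. Its FPKM was 0.36, 4.57 and 1.08 in the 0 mM libraries, 46.6, 57.3 and 46.2 in the 100 mM libraries and 18.1, 40.4 and 15.9 in the 400 mM libraries. All salt libraries lay far above the 0 mM libraries, and 400 mM replicate 2 came close to the 100 mM libraries. The 100 mM mean was 50.0 ± 6.33 FPKM and the 0 mM mean 2.00 ± 2.25 FPKM (SD over 3 libraries), a ratio of 25.0. The cluster is 582 bases long, and its lowest library held 2 counts, so counting error alone makes its 0 mM level imprecise.

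The cluster at rank 2 was of nearly the same length, 588 bases, and had a course of the same form. Its FPKM was 0.35, 3.87 and 1.67 at 0 mM, 34.6, 38.6 and 43.1 at 100 mM and 12.3, 27.9 and 11.5 at 400 mM. In both clusters 0 mM replicate 2 was the highest of its level and 400 mM replicate 2 the highest of its level. Whether both are copies of 1 gene is not given in the sources used here.

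Ranks 3, 4 and 5 differed in length and abundance. Rank 3, of 449 bases, had 9.99, 5.78 and 9.88 FPKM at 0 mM, 115, 180 and 168 FPKM at 100 mM and 28.9, 86.1 and 99.9 FPKM at 400 mM. Rank 4, of 3115 bases, had 0.63, 0.99 and 1.76 FPKM at 0 mM, 19.8, 20.4 and 16.4 FPKM at 100 mM and 7.30, 15.02 and 15.01 FPKM at 400 mM. Rank 4 held 63.7% of its difference at 400 mM, the highest share of the set, and its lowest 400 mM library was 4.15 times its highest 0 mM library. Rank 5, of 1755 bases, had 6.99, 4.90 and 6.63 FPKM at 0 mM, 92.7, 123 and 78.2 FPKM at 100 mM and 16.7, 42.5 and 65.1 FPKM at 400 mM. In all 3 clusters 400 mM replicate 1 was the lowest of its level, between the other 400 mM libraries and those of 0 mM.

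The most abundant member over all libraries was Cluster-23439.54680, rank 138, of 961 bases. Its FPKM was 156, 298 and 328 at 0 mM, 872, 710 and 725 at 100 mM and 593, 392 and 402 at 400 mM. Here replicate 1 was the lowest at 0 mM and the highest at both salt levels. The 100 mM mean was 769 ± 89.8 FPKM and the 0 mM mean 260 ± 91.7 FPKM (SD over 3 libraries), a ratio of 2.95. The 400 mM mean was 462 ± 113 FPKM.

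The next in abundance was rank 147, of 614 bases, with 268, 287 and 286 FPKM at 0 mM, 688, 720 and 648 FPKM at 100 mM and 398, 318 and 501 FPKM at 400 mM. Its 0 mM libraries differed by little, at 280 ± 10.5 FPKM (SD, n = 3). Rank 45, of 427 bases, had 42.01, 179 and 180 FPKM at 0 mM, 1032, 657 and 805 FPKM at 100 mM and 423, 260 and 483 FPKM at 400 mM. In rank 45, whose ratio of 100 over 0 mM was 6.23, replicate 1 of 0 mM lay far below the other 0 mM libraries. Rank 119, of 2550 bases, had 97.1, 222 and 236 FPKM at 0 mM, 666, 623 and 644 FPKM at 100 mM and 409, 333 and 591 FPKM at 400 mM. Rank 79, of 1265 bases, had 79.5, 203 and 151 FPKM at 0 mM, 657, 610 and 749 FPKM at 100 mM and 321, 329 and 424 FPKM at 400 mM. The highest 400 mM library of rank 119 nearly reached its lowest 100 mM library, by a factor of 1.06, whereas in rank 79 that factor was 1.44.

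The 3 members with the largest ratio of 100 over 400 mM were scarce, whereas the next, at a ratio of 3.14, had a mean of 95.1 FPKM. Rank 7, of 1435 bases, had 0.76, 0.46 and 0.79 FPKM at 0 mM, 4.73, 9.59 and 14.3 FPKM at 100 mM and 3.04, 2.40 and 1.87 FPKM at 400 mM. Its 100 mM libraries were widely spread without reaching down to the 400 mM libraries, and its ratio of 100 over 400 mM was 3.91. Rank 9, of 567 bases, had 0.56, 0.90 and 1.81 FPKM at 0 mM, 13.0, 11.7 and 16.5 FPKM at 100 mM and 3.50, 2.54 and 5.10 FPKM at 400 mM. Between its highest 400 mM and its lowest 100 mM library lay a factor of 2.28, the widest such gap in the set. Rank 15, of 1670 bases, had 0.47, 1.13 and 0.95 FPKM at 0 mM, 7.05, 13.9 and 6.74 FPKM at 100 mM and 1.91, 3.08 and 3.01 FPKM at 400 mM. In these clusters 19.9% to 21.7% of the difference was present at 400 mM.

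At the other end, ranks 116, 99 and 87 had ratios of 100 over 400 mM of 1.42 each, just above the minimum. Rank 99, of 2787 bases, had 10.1, 29.5 and 31.7 FPKM at 0 mM, 82.4, 102 and 95.3 FPKM at 100 mM and 50.2, 67.0 and 80.2 FPKM at 400 mM. Its highest 400 mM library and lowest 100 mM library differed by a factor of 1.03.

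Ranks 68, 22 and 38 had the lowest p of the set for 400 against 100 mM in the fit of the counts described below, although none was called. Rank 22, of 4058 bases, had 17.1, 17.9 and 23.8 FPKM at 0 mM, 163, 180 and 167 FPKM at 100 mM and 71.3, 85.0 and 76.7 FPKM at 400 mM. Its fitted log2 fold change on the counts was 3.37 (SE 0.19) for 100 against 0 mM and -1.19 (SE 0.18) for 400 against 100 mM. Rank 68, of 1120 bases, had 23.0, 25.9 and 19.3 FPKM at 0 mM, 108, 119 and 121 FPKM at 100 mM and 43.0, 60.3 and 47.7 FPKM at 400 mM. Rank 38, of 1253 bases, had 6.96, 6.87 and 9.36 FPKM at 0 mM, 60.1, 53.3 and 39.2 FPKM at 100 mM and 20.9, 25.0 and 19.4 FPKM at 400 mM. In each of these 3 clusters the levels were separated by factors of at least 1.5 between neighbouring libraries of different levels.

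**Figure D4:**
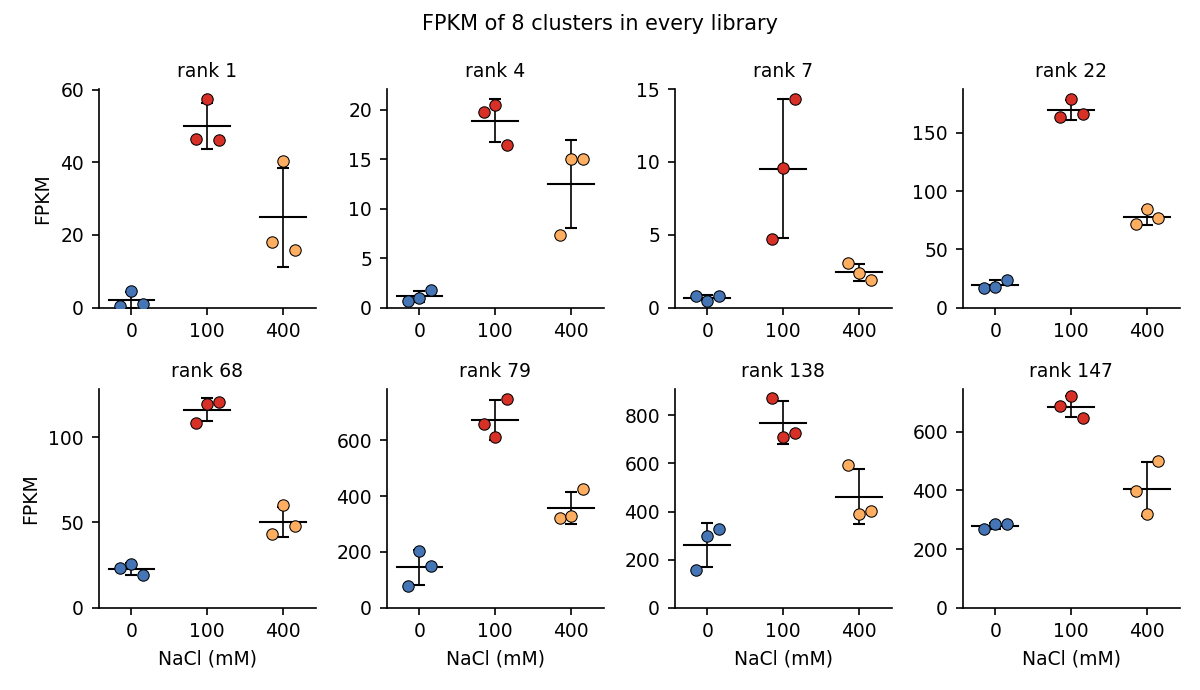
FPKM of 8 clusters, named by rank, at 0, 100 and 400 mM NaCl, each panel with its own scale from 0. Points are libraries in the order of their replicate numbers, horizontal lines are means and error bars are SD (n = 3); rank 22 stands at 163 to 180 FPKM at 100 mM and 71.3 to 85.0 at 400 mM, whereas rank 7 spreads from 4.73 to 14.3 FPKM at 100 mM.

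Members just inside the limit of 150 resembled those just outside it. Rank 149 had a mean of 9.67 FPKM at 100 mM and 4.02 FPKM at 0 mM, a ratio of 2.40, and rank 150 had 89.4 and 37.9 FPKM, a ratio of 2.36. Outside, rank 151 had 66.8 FPKM at 100 mM and 28.4 FPKM at 0 mM, a ratio of 2.35, and rank 152 had 28.04 and 11.9 FPKM, likewise 2.35. The 13 qualifying clusters outside the set had a median ratio of 2.22.

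By choice, levels did not overlap in any member. Over the table, the 100 mM libraries lay above all 0 mM libraries in 9.66% of clusters, the 400 mM libraries above all 0 mM libraries in 9.67%, and the 400 mM libraries below all 100 mM libraries in 6.74%. In the members, the gap between 0 and 100 mM had to exceed both others, since the 400 mM libraries lie between. The factors below were counted in the members only, without a share of the table beside them. Over the table, a gap of any such size without overlap can be no more common than the shares just given. The lowest 100 mM library exceeded the highest 0 mM library by more than 2-fold in 133 members, with a median factor of 3.03. The lowest 400 mM library exceeded the highest 0 mM library by a median factor of 1.42, by more than 1.5-fold in 62 members and by less than 1.1-fold in 16. Between the lowest 100 mM and the highest 400 mM library the median factor was 1.17. That factor exceeded 1.5 in 19 members and was under 1.1 in 41. With the counts scaled by TMM factors in place of FPKM, 135 of the 150 kept the order of all 9 libraries, and the other 15 lost it between 400 and 100 mM, not between 0 and 400 mM. The order on TMM-scaled counts was not counted over the table, where 0.692% of clusters met it in FPKM.

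Libraries of 1 level differed among themselves in a pattern shared by many members. At 0 mM, replicate 1 was the lowest of its level in 120 members, beside 31.6% of all clusters of the table. In 70 members it was below 50% of the mean of the other 0 mM libraries, as it was in 9.13% of the table. At 400 mM, replicate 1 was the lowest in 101 members and replicate 3 the highest in 94, beside 32.5% and 24.2% of the table. Replicate 1 was the lowest at both levels in 83 members, beside 12.2% of the table. At 100 mM the counts were more even. Replicates 1, 2 and 3 were the highest of that level in 50, 53 and 47 members, beside 43.9%, 32.5% and 23.9% of the table, and the lowest in 66, 36 and 47 members, beside 30.1%, 32.1% and 38.2%. Over members, the median coefficient of variation of FPKM was 39.5% among the 0 mM libraries, 17.4% among those of 100 mM and 26.5% among those of 400 mM. Over the table it was 24.8%, 26.2% and 27.6% at 0, 100 and 400 mM. The choice bears on the members' spreads, since it bounds the 400 mM libraries on both sides and favours low values at 0 mM. Without 0 mM replicate 1 the members' median log2 ratio of 100 over 0 mM was 2.07, and without 0 mM replicate 2 or 3 it was 2.41 and 2.42.

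Because each library took part in the choice, the rule was also applied with 1 library left out, and the left-out library was then placed in the 150 clusters chosen without it. A left-out 0 mM library was in its place if it lay below the lowest 400 mM library, a 100 mM library if above the highest 400 mM library and a 400 mM library if between both other levels. For 0 mM replicates 1, 2 and 3 this held in 129, 122 and 125 of 150 clusters, beside 24.6%, 20.1% and 26.8% of all clusters of the table. For 100 mM replicates 2 and 3 it held in 127 and 118 clusters, beside 23.8% and 17.9% of the table. With 100 mM replicate 1 left out, it held in only 69 of 150 clusters, beside 29.4% of the table. For 400 mM replicates 1, 2 and 3 it held in 109, 113 and 86 clusters, beside 3.55%, 2.61% and 2.17% of the table. The other 8 libraries took part in the choice each time, so only the left-out library's own values are new, and the groups it was set against had been chosen to lie low or high.

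**Figure D5:**
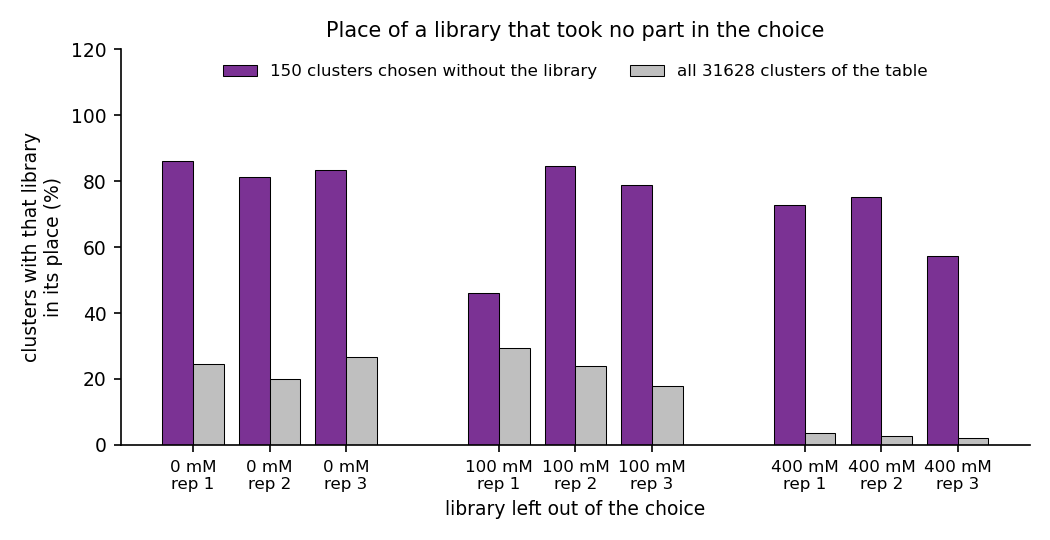
Percent of clusters in which a library that took no part in the choice lay in its place (y axis), for each of the 9 libraries left out in turn (x axis). Purple bars are the 150 clusters chosen without that library and grey bars all 31628 clusters of the table; purple bars range from 46.0% for 100 mM replicate 1 to 86.0% for 0 mM replicate 1.

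A left-out 100 mM library lay above the highest 0 mM library in 145, 148 and 147 of 150 clusters for replicates 1, 2 and 3, beside 21.9%, 24.5% and 19.9% of the table. Its median log2 ratio over the 0 mM mean was 2.43, 2.30 and 2.33, while the 100 mM libraries that had been used gave 2.92, 2.41 and 2.48. Over the table the left-out library's median was -0.15, -0.25 and -0.31. A left-out 400 mM library lay above the highest 0 mM library in 115, 144 and 147 clusters for replicates 1, 2 and 3, beside 23.1%, 27.6% and 23.9% of the table. It lay below the lowest 100 mM library in 144, 119 and 89 clusters, beside 24.3%, 23.8% and 26.4%. Replicate 1 of 400 mM thus missed its place mostly towards 0 mM and replicate 3 mostly towards 100 mM. The median log2 ratio of the left-out 400 mM library over the 0 mM mean was 0.96, 1.72 and 2.30 for replicates 1, 2 and 3. The 400 mM libraries that had been used gave 1.40, 1.59 and 1.63. Over the table the left-out library's median was -0.12, -0.15 and -0.25. Without 100 mM replicate 1 the rule was met by 310 clusters, and without 400 mM replicate 3 by 324, beside 163 with all libraries.

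The counts behind the set were then read from a fit over all clusters with edgeR's quasi-likelihood test, in which 149 of the 150 members passed the filter on low counts. The exception was rank 111, a cluster of 310 bases with between 1 and 13 counts per library. In 100 mM against 0 mM, 70 members were called higher at an adjusted p under 0.05, beside 0.424% of all 56832 clusters tested. Of the 241 clusters called higher, 204 were among the 31628 of the table, from which alone members could come. These 70 are 46.7% of the members and 29.0% of the 241 clusters called higher, and the choice of members used the same contrast. Their median abundance was 47.9 FPKM, beside 24.4 FPKM in the 80 members not called or not tested. Their median coefficient of variation at 0 mM was 26.8%, beside 55.1% in those 80. In 15 of the 70 and 55 of the 80, 0 mM replicate 1 was below 50% of the mean of the other 0 mM libraries.

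The fitted log2 fold changes of the 149 members had a median of 2.50 for 100 against 0 mM, with a median SE of 0.43, beside -0.06 over all clusters tested. Without any single library other than 400 mM replicate 1, the count of 70 became 0 to 43, namely 43 without 400 mM replicate 3, 3 without 100 mM replicate 1, 2 without 400 mM replicate 2 and 0 or 1 without each of the others. The shares of all clusters called higher in those fits were 0% to 0.22%. The count was 81 without 400 mM replicate 1, beside 0.921% of all clusters tested. It was 149 with DESeq2, beside 5.24%, and 136 with limma on log2(FPKM + 1), beside 1.78%.

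In 400 mM against 0 mM, edgeR's quasi-likelihood test called 0 members, beside 0% of all clusters tested. At an unadjusted p under 0.05, 137 members were higher, beside 8.13% of all clusters. The median fitted log2 fold change was 1.62 (median SE 0.41), and all 149 were positive, as the choice requires. DESeq2 called 111 members higher, beside 3.87% of all clusters. With limma 7 members were called at a pseudocount of 1 FPKM, beside 0.169%, and 5 at 0.1 FPKM, beside 0.136%. Without 400 mM replicate 1 edgeR called 10, beside 0.175%. With the newer adjusted deviances, a setting added after seeing the data, edgeR called 2, beside 0.037%.

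In 400 mM against 100 mM, edgeR's quasi-likelihood test likewise called 0 members, beside 0% of all clusters tested. At an unadjusted p under 0.05, 70 members were lower at 400 mM, beside 3.39% of all clusters. The median fitted log2 fold change was -0.88 (median SE 0.41), and all 149 were negative, as the choice requires. Without 1 library, the count of 70 became 37 (400 mM replicate 2), 38 (400 mM replicate 1) or 39 (100 mM replicate 2). It was 43 without 100 mM replicate 3, 111 without 0 mM replicate 1 and 63 to 72 without each of the others. In the order given, the shares of all clusters were 2.88%, 3.05%, 2.27%, 2.92% and 3.28%, and 2.83% to 3.31% for the others. DESeq2 called 16 members lower, beside 0.794% of all clusters. With limma 0 members were called, beside 0.0146% at a pseudocount of 1 FPKM and 0.00835% at 0.1 FPKM.

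Length was not part of the choice. Members ranged from 253 to 4897 bases with a median of 1383, beside 1476 over the table. Of the members, 20.7% were longer than 2000 bases, beside 31.6% of the table, and 6.0% were under 500 bases, beside 8.98%. The 31 members over 2000 bases had a median of 52.7% of their difference present at 400 mM, a share that the choice bounds. In the 74 members of 1000 to 2000 bases the median was 40.8%, in the 36 of 500 to 1000 bases 39.5% and in the 9 shorter ones 39.9%. Over the 150 members, which share the same 9 libraries, Spearman's rho between length and this share was 0.31 and Pearson's r with log2 length was 0.30.

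The longest member, rank 29, had 3.05, 9.25 and 12.2 FPKM at 0 mM, 59.7, 61.0 and 64.8 FPKM at 100 mM and 17.7, 31.7 and 42.3 FPKM at 400 mM. The shortest, rank 135, had 55.5, 63.0 and 84.3 FPKM at 0 mM, 207, 236 and 184 FPKM at 100 mM and 96.6, 104 and 163 FPKM at 400 mM, from 22 to 104 counts per library. Its FPKM implies a median length over libraries of 22 bases in the authors' scaling, against 253 deposited. Its level is therefore not comparable with that of longer clusters. The implied length fell short in other members too, with a median of 1136 bases beside 1383 deposited. It was 181 against 427 bases in rank 45, among the 5 most abundant, and 4650 against 4897 in rank 29. The shortfall raises FPKM more in short clusters, so abundances of short and long members are not directly comparable. Whether the implied length was alike in all libraries was not tested, so the ratios of rank 135 between libraries may be affected too.

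Members were more abundant than most clusters of the table. Their mean over all libraries ran from 1.104 to 497 FPKM with a median of 32.2, beside 6.11 over the table. A mean of at least 10 FPKM was found in 70.7% of members and 37.9% of the table, and of at least 100 FPKM in 22.0% and 4.85%. The 44 members under 10 FPKM were a median of 4.22-fold above 0 mM at 100 mM, the 73 between 10 and 100 FPKM 5.10-fold and the 33 above 5.22-fold. The mean includes the salt libraries in which members were chosen to be high. At 0 mM alone, members had a median of 9.25 FPKM, beside 6.34 over the table.

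All 150 members carried the number 23439 before the point in their names, as did 99.3% of the table. Counts that are not whole, as can arise when reads are divided among clusters, were found in at least 1 library for 106 members (70.7%) and 79.1% of the table. The other 44 members held whole counts in all 9 libraries. Fewer than 10 counts were found in 18 members in 0 mM replicate 1, in 5 and 4 members in 0 mM replicates 2 and 3, in 1 member in each 400 mM library and in 0 members at 100 mM.

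Among the 6 possible orders of 3 levels without overlap, the order of the set, with 0 mM lowest and 100 mM highest, was met by 219 clusters, or 0.692% of the table. The opposite order, with 100 mM lowest and 0 mM highest, was met by 237 clusters (0.749%). A stepwise increase from 0 over 100 to 400 mM was met by 39 clusters (0.123%), and a stepwise decrease by 101 (0.319%). With 0 mM between both salt levels, 20 clusters were highest at 100 mM and 56 highest at 400 mM. The 219 clusters had a median of 34.2 FPKM and the 237 of the opposite order 5.60 FPKM. Their median log2 ratios of 100 over 0 mM were 1.93 and -1.34. The 39 stepwise clusters had a median length of 2227 bases, beside 1444 in the 219. These differences between orders are descriptions and were not tested.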

How the data were processed

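The authors deposited for each of the 9 libraries a read count and an FPKM for 126059 clusters, per the file headers, and a table of FPKM and cluster length for 31628 of them. The deposited counts are estimated counts, since 38.5% to 42.5% of the values in a library are not whole (tolerance 0.004). Bowtie2 2.0.6 and TopHat2 2.0.9 appear, without a stated role, in the submitters' processing notes. For the assembler, the counting tool and its strand setting, the choice is not given in the sources used here. Total counts ran from 16502728 to 23933039 per library.

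The set was chosen and ranked on the deposited FPKM. The members, the lists and the tests were chosen with earlier results of these data known. For the count fit, counts were rounded to whole numbers and tested with edgeR 4.0.16 in R 4.3.3 (glmQLFit, TMM, default filterByExpr, 56832 clusters, all 9 libraries as 3 groups, Benjamini-Hochberg over all clusters). The common biological coefficient of variation was 0.758. Each SE printed for this fit is the absolute log2 fold change divided by the square root of the test's F statistic. Alternatives were DESeq2 1.42.0 on the same filtered clusters, limma 3.58.1 on log2(FPKM + 1) and log2(FPKM + 0.1) for clusters with at least 1 FPKM in 3 libraries, other scalings, no filter, a replicate block and each library left out. Clusters have no gene names, so 2 are named, the first in rank and the most abundant. Others are given by rank, by a fixed rule: ranks 1 to 5, the most abundant 5, the 3 highest and 3 lowest ratios of 100 over 400 mM, the 3 highest ratios of 400 over 0 mM, the 3 lowest p for 400 against 100 mM, the longest, the shortest and those at the limit of 150. Rank 111 was named as the only member not tested. The 3 highest ratios of 400 over 0 mM belong to ranks 1, 4 and 2.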

Additional observations from a re-analysis of the deposited data

How the results depend on the processing

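Counts below are members called in 100 against 0 mM, 400 against 0 mM and 400 against 100 mM, which were 70, 0 and 0 with edgeR. DESeq2 called 149, 111 and 16, limma with a pseudocount of 1 FPKM 136, 7 and 0, and with 0.1 FPKM 116, 5 and 0. The shares of all clusters called in the same directions were 0.424%, 0% and 0% with edgeR, 5.24%, 3.87% and 0.794% with DESeq2, 1.78%, 0.169% and 0.0146% with limma at 1 FPKM and 1.27%, 0.136% and 0.00835% at 0.1 FPKM. Scaled by library size alone, the first count was 42, with DESeq2 size factors 71 and with no filter 69, and both others stayed 0, beside 0.185%, 0.457% and 0.186% of all clusters for the first count. Settings chosen after seeing the data were the newer adjusted deviances of edgeR (124, 2 and 0, beside 1.42%, 0.037% and 0.00176%) and leaving out replicate 1 of both salt levels (64, 14 and 0, beside 1.25%, 0.65% and 0%). Leaving out 1 library gave 0 to 81, 0 to 10 and 0 calls. Which property of the libraries or tools moves these counts was not tested. The replicate block gave 83, 10 and 0 calls, beside 0.966%, 0.144% and 0% of all clusters, and the replicate numbers are not known to pair plants. Deviations of same-numbered libraries from their level means correlated at -0.007 to 0.143, and those of differently numbered libraries at -0.089 to 0.046. The highest value, 0.143, joined replicate 1 of 100 and 400 mM, whereas 0 mM replicate 3 correlated best with 100 mM replicate 1 (0.044). The rule was met by 193 to 324 clusters with 1 library left out and by 221, 210, 204 and 168 with TMM-scaled counts per length, the order alone, minima of 0.3 and 0.1, and no upper limit on FPKM, beside 163. The settings with all libraries kept 122, 140, 140 and 146 of the members among their 150 highest. Leaving out 1 library kept 69 (without 100 mM replicate 1), 85 (without 400 mM replicate 3) or 109 to 129 (without each of the others). Leaving out 1 library moved the median log2 ratios to 2.07 to 2.42 (100 over 0 mM), 1.16 to 1.57 (400 over 0 mM) and -0.96 to -0.72 (400 over 100 mM). For the clusters described by rank, 1350 refits of 75 fold changes gave 0 reversals, 92 lost calls and 101 gained calls. The choice, which separated all 3 levels in the same libraries, left little room for a reversal. In 0 mM replicate 1, 18 members had fewer than 10 counts, so their level there is imprecise. Members held 0.258% of the counts of that library, beside 0.53% and 0.516% in 0 mM replicates 2 and 3. Whether sequencing depth or low abundance gave the low counts was not tested.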
